A study of Mus musculus with 8 samples.

Results

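Bag6 and Klhdc3 are 2 mouse genes of protein quality control. The group shares of their splice junctions differed between hepatocytes given Cre to remove SRSF3 and control hepatocytes. SRSF3 is an SR protein that binds RNA and regulates splicing. Bag6 and Klhdc3 are 2 of 638 gene symbols in 2 deposited tables of splicing. Every entry under either symbol was taken: 4 local splicing variations with 14 junction entries, and 2 events of junction usage. The genes were chosen from earlier results on these same tables, by the change in junction share between the groups, so the values below describe them and no test of that change was run here. Hepatocytes are the main parenchymal cells of the liver. They were isolated from C57BL/6J mice with floxed Srsf3 alleles, cultured, and given an adeno-associated virus (AAV) for 48 h. In the AAV-Cre group (4 libraries, genotype label Srsf3-KO) the virus carried Cre recombinase, which deletes the floxed part of Srsf3. In the AAV-GFP group (4 libraries, genotype label Srsf3-flox) it carried green fluorescent protein, so these controls kept the floxed alleles. No group received Cre without floxed alleles, so the groups differ in what the virus carried, Cre or GFP, as well as in Srsf3. The labels do not give the promoter of the virus or the number of mice behind the libraries.

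BAG6 is a chaperone of the cytosol and nucleus that shields exposed hydrophobic segments. It hands tail-anchored membrane proteins to the GET targeting pathway and passes mislocalised proteins on for ubiquitination and decay. Its N-terminal ubiquitin-like domain recruits the ubiquitin ligase RNF126, and its C-terminal region, with a BAG-like domain, binds the partners UBL4A and GET4. KLHDC3 is a kelch repeat protein that serves as a substrate receptor of a cullin 2 (CUL2) ubiquitin ligase, to which elongins B and C connect it, and it recognises proteins that end in a C-terminal glycine degron.

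The sequences that distinguish the isoforms come from GENCODE vM21 transcripts (mm10), written 5′ to 3′ on the strand of the gene. The first 3 span exon junctions of Bag6 (chromosome 17, plus strand), with bases of exon 24 in capitals. They show that the skipped form joins the end of exon 23 directly to the start of exon 25.
Bag6 exon 23 to exon 24: gccaagagacgaaagACAATGCAGGGTGAG
Bag6 exon 24 to exon 25: AGCTACAGGCAGCAGctccggtctgatatc
Bag6 exon 23 to exon 25: gccaagagacgaaagctccggtctgatatc

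The other 3 are the first 30 coding bases at annotated start codons, in capitals, which place the changes at the 5′ ends of both genes relative to the protein. The first lies in a first exon of Bag6 called B below (chr17:35135519-35135548), the second in the exon that all the Bag6 first exons are spliced to (chr17:35136128-35136157), and the last in exon 3 of Klhdc3 (chr17:46678405-46678434, minus strand).
Bag6 start in first exon B: ATGtgtgtttgtatgtgtttggtcgcgtgt
Bag6 start in the shared exon: ATGgagccgagtgatagtgccagtaccgct
Klhdc3 start in exon 3: ATGttacggtggacagtgcatctggagggc

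The first table gives, for each junction of a local splicing variation, the authors' expected percent spliced in (PSI) of each group, as a share from 0 to 1 of the junctions that enter or leave 1 exon. It also gives an expected change, printed here as AAV-Cre minus AAV-GFP. The second table gives the authors' change, p-value and q-value for events of junction usage. Both hold 1 value per group or comparison, so the level in each library, its spread and its depth are unknown, and no SD is given. A share from bulk RNA cannot tell a partial change in every cell from a complete change in some cells, nor more of one isoform from less of another. Neither table holds expression levels, so markers of hepatocytes and of other liver cells could not be checked. As a check of the labels, splicing of Srsf3 exon 1 to its exon 2 stood at 0.998 under AAV-GFP and 0.157 under AAV-Cre, per the authors' deposited table.

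Of the 14 junction entries of Bag6 and Klhdc3, 8 changed by at least 0.2, with 4 higher and 4 lower in AAV-Cre. The 8 comprised 4 of 8 entries of Bag6 and 4 of 6 of Klhdc3. Shares within a variation have a fixed total, so higher and lower entries come together and are not separate changes. The 6 entries of Klhdc3 hold 5 distinct junctions, since the skip of its exon 2 is listed in both variations. Over all 6866 listed junction entries 22.3% changed by that size. Many entries sit in 3 windows of 100 kb that hold 423 of the 862 listed variations and none of Bag6 or Klhdc3, and outside these windows the share was 54.1%. These shares stand beside the members' counts as background only, since the genes were chosen by the same values. By size of the most changed junction Klhdc3 ranked 22 and Bag6 50 of 354 genes, all of which (100%) had a change of at least 0.2, with a median over genes of 0.31. Both genes were also listed by junction usage, as were 130 of the 354 genes (36.7%).

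**Figure D1:**
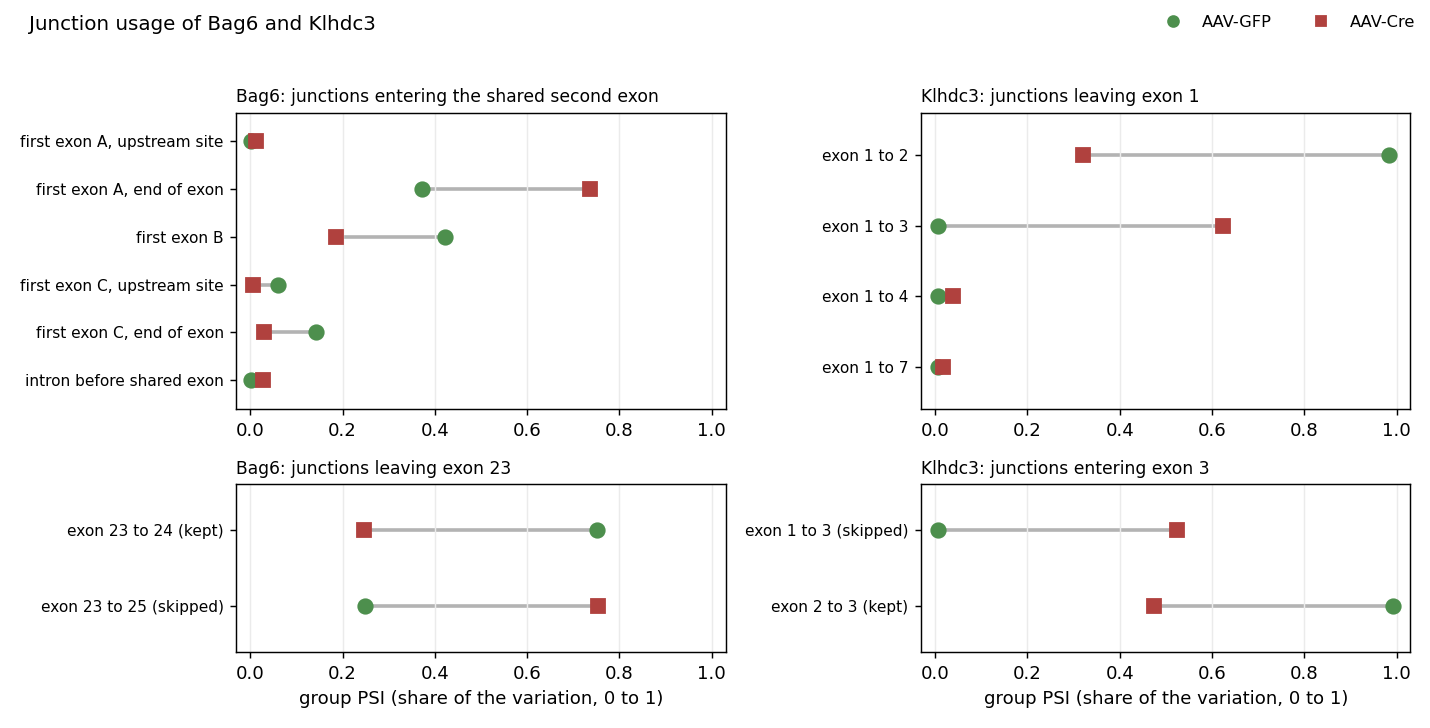
Group PSI (horizontal axis, share of the variation from 0 to 1) of each listed junction of Bag6 and Klhdc3 (vertical axis) in AAV-GFP (green circles) and AAV-Cre (red squares), 1 value per group with no error known. The kept and skipped junctions of Bag6 exon 24 trade places near 0.25 and 0.75, and the junction from exon 1 to exon 2 of Klhdc3 goes from 0.983 to 0.321.

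Bag6 had 2 listed variations, at opposite ends of the gene. The gene lies on chromosome 17 from 35135178 to 35147322 (mm10, plus strand). Toward its 3′ end, exon 24 of the transcript Bag6-201 (35146757 to 35146903), 24th of 25 exons, was mostly kept in AAV-GFP and mostly skipped in AAV-Cre. The junction from exon 23 into this exon had an expected PSI of 0.752 under AAV-GFP and 0.247 under AAV-Cre, per the authors' deposited table. For the skip from exon 23 to exon 25 the authors' deposited table gave 0.248 and 0.753. The authors' deposited table gave the inclusion junction an expected change of -0.511, and the difference of the group values was -0.505. The major and the minor form thus exchanged places.

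Exon 24 is coding throughout in the annotation. It is 147 nt long, starts at the first base of a codon and holds 49 whole codons, so its skipping leaves the reading frame intact. Bag6-201 encodes 1154 codons, and removal of exon 24 alone from it gives 1105. The exon is followed by 31 codons before the stop, which both forms share, so the skipped stretch is near the C-terminus of the protein. Inclusion is annotated in Bag6-201 and Bag6-202, and the junction of exon 23 to exon 25 in Bag6-203, Bag6-207 and Bag6-211. Only the junctions that leave exon 23 were listed, so the share that enters exon 25 from exon 24 was not measured here. The junction usage table, which is limited to p below 0.05, listed no event of this exon.

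At the 5′ end, Bag6 was spliced from donor sites in several annotated first exons to a shared second exon (35136115 to 35136235). First exon A (35135178 to 35135471) starts transcripts such as Bag6-201 and holds only 5′ UTR. First exon B (35135486 to 35135628), of Bag6-210 and Bag6-212, contains a start codon of its own. First exon C (35135718 to 35136004) is again 5′ UTR, in Bag6-211 with a donor site inside the exon and in Bag6-213 with the donor at its end.

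In AAV-GFP the donor sites of no first exon dominated, while in AAV-Cre most junctions came from those of first exon A. The junction from the end of A had an expected PSI of 0.373 under AAV-GFP and 0.736 under AAV-Cre, per the authors' deposited table, with an expected change of 0.374. For B the authors' deposited table gave 0.421 and 0.186, with an expected change of -0.210, just over the size of 0.2. By these group values the donor of B had the largest share in AAV-GFP, followed by that of A, and the donor of A had the largest in AAV-Cre. The junctions give the donor site joined to the shared exon and not where each RNA began. First exon B starts shortly after A ends, so the first exons are named by annotation, and the use of each transcript start was not tested.

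The end of first exon C had 0.142 under AAV-GFP and 0.030 under AAV-Cre, and its internal donor had 0.060 and 0.007, in the authors' deposited table. The deposited changes of these junctions were smaller than the differences of the group values, at -0.0683 and -0.0172, and neither reached 0.2. A donor site upstream of the end of A that is annotated in no transcript had 0.001 and 0.012, and the intron just before the shared exon was retained at 0.001 and 0.027, in the authors' deposited table. Summed over donor sites, first exon A made up 0.374 of the junctions in AAV-GFP and 0.748 in AAV-Cre. First exon C made up 0.202 and 0.037. Exons B and C were both lower in AAV-Cre, and the whole of that difference was taken up by A and, to a small part, by intron retention.

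**Figure D2:**
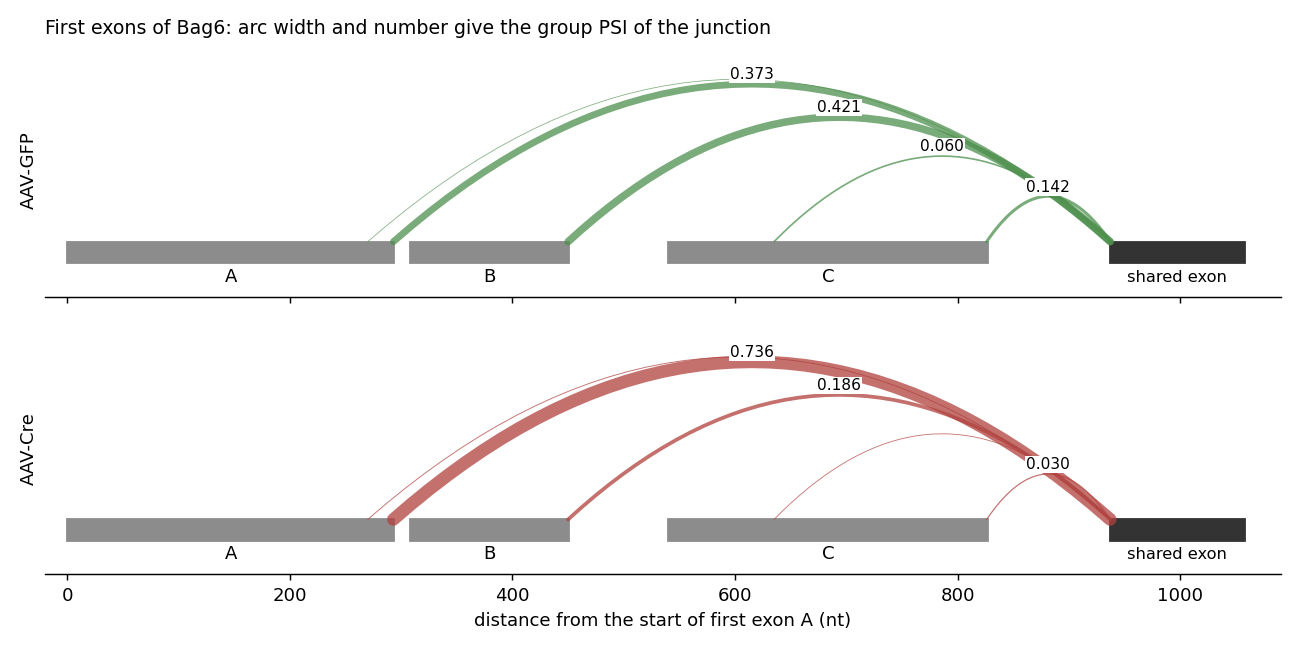
Map of the Bag6 first exons A, B and C (grey boxes) and the shared second exon (black box), to scale along the horizontal axis in nt from the start of exon A, with arcs for the 5 listed junctions in AAV-GFP (upper panel) and AAV-Cre (lower panel). Arc width is proportional to group PSI above a thin minimum and values of at least 0.025 are printed: exon A carries 0.373 under AAV-GFP and 0.736 under AAV-Cre, and exon B 0.421 and 0.186.

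First exon B differs from A and C in what it encodes. From its annotated start codon, which is included, 110 coding nt lie in the exon, and 13 nt of the shared exon come before the start codon that the other transcripts use. These 123 nt run in frame with no stop, so transcripts from B would begin the protein 41 codons further upstream. Both annotated transcripts with exon B have incomplete 3′ ends in the annotation, and no protein was measured. The share of junctions from the donor of exon B was 0.421 under AAV-GFP and 0.186 under AAV-Cre. What share of transcripts holds the upstream start codon was not measured. The shared exon, with the usual start codon, is present in both groups whichever first exon is used.

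The junction usage table listed the same first exons as 1 event with 3 donor sites, and this was the event of Bag6 that passed the authors' test. The authors' deposited table gave it a p-value of 6.73e-05 and a q-value of 0.0167. Its changes in the authors' deposited table were 0.479 at the end of exon A, -0.346 at exon B and -0.133 at exon C. Of all 498 events, 11.4% reached a q-value of at most 0.05 with a change of at least 0.1, and of the 2 events of Bag6 and Klhdc3, 1 did. For a like-for-like view the group PSI values of the local variation were rescaled to these 3 sites alone. Exon A then had 0.399 under AAV-GFP and 0.773 under AAV-Cre, a difference of 0.375. Exon B had 0.450 and 0.195, and exon C 0.152 and 0.0315. Both tables gave the same order and the same signs at the 3 sites, with larger sizes by junction usage. They were made from the same libraries and are no independent support for each other. The event is filed under alternative 5′ splice sites there, although its donor sites lie in 3 separate first exons of the annotation.

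Klhdc3 had 2 listed variations that describe the same exon from both sides. The gene lies on chromosome 17 from 46674550 to 46680914 (minus strand). Its exon 2 (46679042 to 46679194; 153 nt, 2nd of 12 exons in Klhdc3-201) was included almost always in AAV-GFP, and its junctions had lower shares in AAV-Cre at both sides. Among the junctions that leave exon 1, that to exon 2 had an expected PSI of 0.983 under AAV-GFP and 0.321 under AAV-Cre, per the authors' deposited table, with an expected change of -0.665. The junction from exon 1 to exon 3, which skips exon 2, held 0.006 and 0.623, per the authors' deposited table, with an expected change of 0.611. This was the largest shift of any junction pair in Bag6 or Klhdc3.

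Seen from exon 3, the shift was smaller. Of the junctions that enter exon 3, the one from exon 2 had 0.993 under AAV-GFP and 0.475 under AAV-Cre, and the one from exon 1 held 0.007 and 0.525, per the authors' deposited table. The skipping junction has an expected change of 0.514 here in the authors' deposited table. The 2 variations have different denominators. Restricted to the junctions from exon 1 to exon 2 or exon 3, skipping made up 0.00607 under AAV-GFP and 0.660 under AAV-Cre, against 0.525 in AAV-Cre at exon 3. The annotation also holds a transcript, Klhdc3-203, that reaches exon 2 from another first exon, whose junction would count at exon 3 but not at exon 1. Its use was not listed in either table, and its part in the gap was not tested.

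Exon 2 of Klhdc3 is 5′ UTR in the transcripts whose main coding sequence is annotated. The start codon of Klhdc3-201 and of Klhdc3-202, which lacks exon 2, lies in exon 3, and both encode the same 382 codons. Skipping exon 2 therefore changes the leader and not the protein in these annotated forms. The 5′ UTR is 415 nt in Klhdc3-201 and 272 nt in Klhdc3-202, and the annotated starts of the 2 transcripts also differ. Exon 2 contains 2 ATG triplets, of the 3 in the 5′ UTR of Klhdc3-201, and Klhdc3-202 has 1. Read in Klhdc3-201, the frames opened by the triplets of exon 2 end after 8 and 20 codons, 59 and 15 nt before the main start codon. In a further annotated transcript, Klhdc3-204, the second of these triplets is given as the start codon, and that transcript leaves out exon 3 and joins the main reading frame later. Whether any of these triplets is translated was not measured.

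A small share of junctions from exon 1 of Klhdc3 passed over exon 3 and hence the main start codon. The junction to exon 4 had 0.006 under AAV-GFP and 0.039 under AAV-Cre, and 0.006 and 0.017 stood beside that to exon 7, per the authors' deposited table. Neither junction is annotated. Their deposited changes were 0.00122 and 3.4e-05, far under 0.2. Together they made up 0.012 of the variation in AAV-GFP and 0.056 in AAV-Cre.

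By junction usage, the cassette event of Klhdc3 exon 2 had a change of -0.416 in the authors' deposited table. It had the sign of the local variations but did not pass, with a p-value of 0.0271 and a q-value of 0.518 in the authors' deposited table. In that table the call on Bag6 thus rests on the first exons, and Klhdc3 has none.

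**Figure D3:**
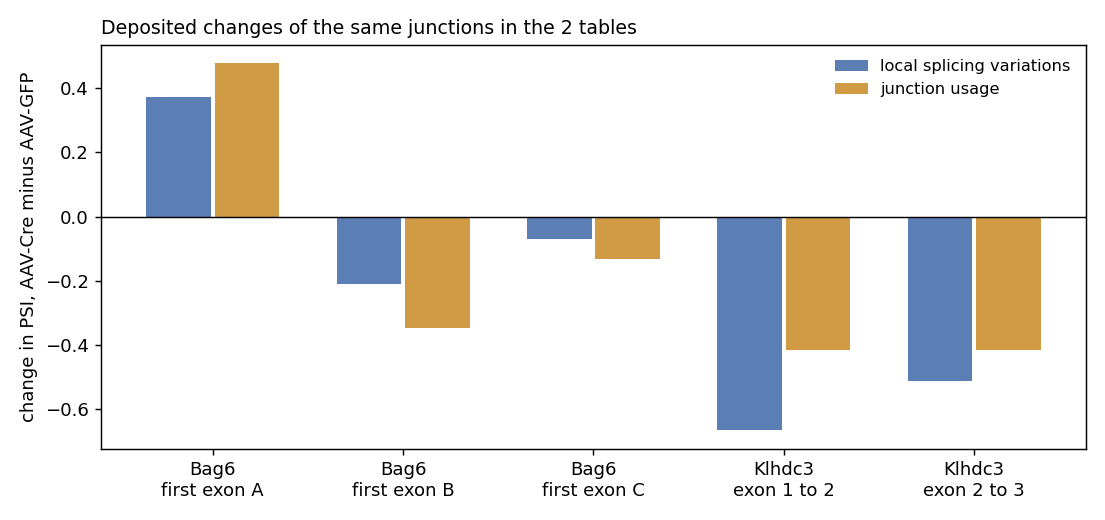
Change in PSI (vertical axis, AAV-Cre minus AAV-GFP) of the same junctions in the deposited table of local splicing variations (blue bars) and in that of junction usage (orange bars), for the 3 first exons of Bag6 and both inclusion junctions of Klhdc3 exon 2, as deposited and with no error known; the 1 usage event of Klhdc3 is drawn beside each of its junctions. Signs are the same in each pair: Bag6 first exon A has 0.374 and 0.479, and Klhdc3 has -0.665 (exon 1 to 2) and -0.514 (exon 2 to 3) against -0.416.

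The Klhdc3 junctions were listed a second time under Gm26904, a long noncoding RNA gene annotated on the opposite strand (46471501 to 46825221). All 6 junction entries had a counterpart there, with group PSI values that differed by 0.003 at most. None of the annotated exons of Gm26904 in GENCODE vM21 overlaps Klhdc3. The libraries were stranded, but the first table lists the same junctions on both strands, so it cannot tell the strands apart here. The junction usage table gives its event to the minus strand, that of Klhdc3.

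The skipped exon of Bag6 and that of Klhdc3 share a similar length and differ in place, one coding and near the end, the other in the leader. SRSF3 is known to bind pyrimidine-rich RNA with CATC among its motifs. On the transcript strand CATC occurs 0 times in exon 24 of Bag6 and 0 times in exon 2 of Klhdc3. Of 1262 internal exons of 147 nt in protein-coding transcripts 56.9% contain it, and of 1031 internal exons of 153 nt 58.3% do. The GC content of the Bag6 exon was 66.7%, against a median of 51.0% over exons of its length, and that of the Klhdc3 exon 54.2%, against 51.6%. Flanking introns were not examined, and absence of these letters says nothing about binding.

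A list of 78 genes of protein quality control in 5 groups includes Bag6 and Klhdc3, which were chosen for their change. The list is a selection and does not hold every gene of these pathways, so the counts cover only the genes on it. Of the other 76 genes, 3 had a local variation with a change of at least 0.2, and none had an event called by junction usage. Over all 21924 protein-coding gene symbols of GENCODE vM21 the share with such a variation was 1.51%, and which of them the hepatocytes express is not in the tables. Of the other 14 genes of CUL2 ligases and their receptors 1 changed, Eloc, of 24 chaperones and BAG family genes 1, Hspa5, and of 16 proteasome genes 1, Psmd1. Of the 11 other genes of the BAG6 and tail-anchored protein pathway and the 11 of ER-associated degradation, none had a changed local variation. With 1 gene or none per group these counts describe the list and nothing is read from them.

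Eloc encodes elongin C, which connects substrate receptors such as KLHDC3 to cullin 2. Its variation lies in the 5′ UTR, where junctions from alternative donor sites reach a shared downstream exon. The junction from the site at 16656912 (chromosome 1, minus strand) had 0.254 under AAV-GFP and 0.536 under AAV-Cre, and that from the site at 16656822 had 0.742 and 0.435, in the authors' deposited table. The more upstream site was thus used more in AAV-Cre.

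Hspa5 encodes BiP, the HSP70 chaperone of the endoplasmic reticulum. Its first intron (chromosome 2, 34772147 to 34772228; 82 nt), within the 5′ UTR, was retained at 0.103 under AAV-GFP and 0.344 under AAV-Cre as seen from exon 1 in the authors' deposited table. From exon 2 the authors' deposited table gave 0.089 and 0.321. Psmd1 encodes a scaffold subunit of the regulatory particle of the proteasome. Its coding junction from exon 16 to exon 17 had 0.765 under AAV-GFP and 0.539 under AAV-Cre, per the authors' deposited table. The rest came from a noncoding first exon of the transcript Psmd1-208, at 0.235 and 0.461 in the authors' deposited table.

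**Figure D4:**
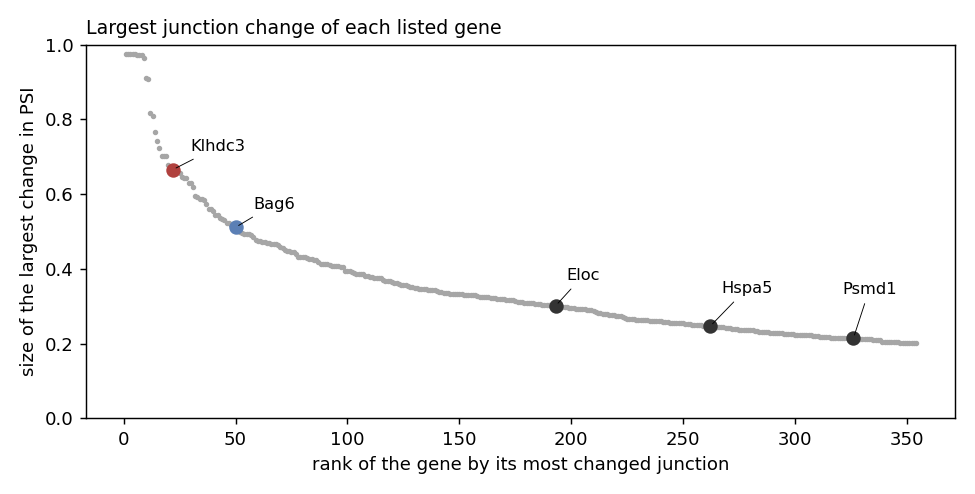
Size of the largest change in PSI (vertical axis, 0 to 1) of each of the 354 genes listed by local variations, ranked along the horizontal axis. Klhdc3 (red), Bag6 (blue) and the 3 other genes of the selected quality control list with a changed variation (black) are marked. Klhdc3 has 0.665 and Bag6 0.511, against 0.301 for Eloc, 0.246 for Hspa5 and 0.214 for Psmd1.

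By junction usage at the authors' p-value below 0.05, 5 further genes of the list appeared, and none had a q-value of 0.05 or less. Dnajb6, a co-chaperone, came nearest (q = 0.0951): the authors' deposited table gave the parts of its event changes of 0.112, -0.074 and -0.038. For Herpud1, a factor of ER-associated degradation, the parts of the event had -0.103 and 0.103 (q = 0.647) in the authors' deposited table. Psmd4, Psma3 and Tcp1 had changes of 0.0729 or less in size there.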

How the data were processed

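RNA of 8 libraries (stranded mRNA, paired ends, per the labels' protocols) was processed by the authors. FastQC, STAR and the genome build mm10 are named in the submitters' processing notes; the sources used here give no versions. The first deposited table is laid out, per the file headers, as MAJIQ's VOILA output, and holds the authors' PSI as a fraction per group. The correlation of its change with the PSI of AAV-GFP less that of AAV-Cre was 0.996, so signs were turned. Its probability column was not used, since values near 1 stand beside all 4155 changes under 0.02. JUM made the second deposited table, per the file headers, which lists p-values, q-values and changes at p below 0.05. In it 63 events had no finite change. Nothing in the labels ties libraries to separate animals or cultures, so these p-values measure only the spread between libraries, which may be technical.

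All entries under Bag6 or Klhdc3 were read, with changes of at least 0.2 counted in the first table, and q-values of 0.05 or less with changes of at least 0.1 in the second. The genes, lists and thresholds were chosen with earlier results of these data known. Named genes were both members, genes listed for the same junctions, listed genes of the quality control list, and Srsf3. Exon places, frames and sequences came from GENCODE vM21. Windows of 100 kb with 8 or more variations were set apart in the background. On made-up tables with known values, counts and signs were read back correctly for 100% of 300 variations, as were all calls among 100 events. That checks the reading of the tables only, since no reads or noise were simulated. Alternatives changed thresholds, the source of the change and the choice by symbol. Python 3.11.15, numpy 2.4.6 and matplotlib 3.10.9 were used.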

Additional observations from a re-analysis of the deposited data

How the results depend on the processing

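A count was taken as the same within 1.5 times and a change when equal to 2 decimals. By that measure 11 of 15 alternatives gave the same value. Most were counts, which have no direction to reverse. The largest changes of Bag6 and Klhdc3 kept their sign, but both versions of each came from the same libraries, so this is no independent check. As the difference of the group PSI values, the largest change of Klhdc3 was -0.662 in place of -0.665 and that of Bag6 -0.505 in place of -0.511, both small shifts of which the first alone crossed a rounding step. At a change of at least 0.3, Bag6 had 3 junctions in place of 4, without that of first exon B. At the authors' p-value below 0.05 with a change of at least 0.1, 2 junction usage events of the members were counted in place of 1, since Klhdc3 then enters. Of the genes of the quality control list, 3 had a change of at least 0.3 (Bag6, Klhdc3 and Eloc) in place of 5 at 0.2. When junction usage at p below 0.05 was added, 10 were listed. No paired analysis was possible because both tables hold values per group only, and for the same reason no library could be left out. Depth is unknown, so no interval was given.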
